A study of Mus musculus with 9 samples.

Results

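Mouse 3T3-L1 adipocytes that had received conjugated linoleic acid (CLA) were compared with 3T3-L1 adipocytes that had received linoleic acid (LA), gene by gene and over the whole array. The comparison took the 6 arrays whose titles name CLA or LA, out of 9 in the series: 3 arrays of CLA adipocytes and 3 of LA adipocytes. The 3 further arrays, from adipocytes given phenformin, entered the fit to steady its estimate of the spread, and for a few leading genes their values are set beside those of CLA. 3T3-L1 is a preadipocyte line derived from mouse embryo fibroblasts that fills with lipid droplets when it is differentiated in culture. All 9 samples were of this cell line, labelled as adipocytes, and no genetic change is named in the labels. The dose, the time of exposure, the CLA isomer or mixture and the day of differentiation are not stated in the sources used here, so CLA and LA are not known to have been matched in dose or time. The labels call the samples of a group biological replicates. The p-values set a group difference against the spread between replicates, estimated from all 9 arrays with information shared across probe sets.

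LA is a fatty acid with a pair of double bonds separated by a methylene group. In CLA the double bonds are conjugated, that is, they follow each other with a single bond between them, so the molecules are isomers. Fat cells take up such acids, esterify them into triglyceride and sense them through nuclear receptors and surface receptors, and isomers of CLA are known for lowering fat storage and for raising inflammatory signals in adipocytes. Phenformin is a biguanide, a class of drug that inhibits mitochondrial respiration. The values below are log2 expression values of probe sets, groups of short array probes that report on 1 transcript. A difference of 1 on this scale is a 2-fold difference. For a gene with several probe sets the brightest one stands, differences are CLA minus LA with their standard error (SE), and a gene was called when its limma p-value, adjusted by Benjamini-Hochberg over 45037 probe sets, was under 0.05.

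The arrays of a group resembled each other closely, with Pearson correlations over probe sets of 0.986 to 0.996, against 0.963 to 0.978 between a CLA and an LA array. The groups also differed in measures of RNA and hybridization. The 3′ minus 5′ difference of beta-actin control probe sets, a gap that widens when transcripts are shortened, was 0.53 ± 0.10 in CLA, 0.56 ± 0.09 in phenformin and 1.28 ± 0.39 in LA (mean ± SD, n = 3 each), and that of pyruvate carboxylase was 4.02 ± 0.63, 3.95 ± 0.60 and 5.35 ± 0.43 in the same order. The part of these differences in the results was not tested beyond a fit with the pyruvate carboxylase measure as a covariate. LA replicate 3 had the narrowest range of values, with a 99th percentile of 11.63, where the other CLA and LA arrays lay between 12.20 and 12.46. Of 10 markers of mature adipocytes fixed for the check, 8 were measured, and all 8 lay above background on all 6 arrays: Adipoq, Fabp4 and Lpl lay at or above the 99.96 percentile of probe sets on each of them. Background here is the 95th percentile of 27 probe sets for bacterial transcripts that the cells do not have, 3.79 to 4.20 per array.

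CLA and LA adipocytes differed over a large part of the transcriptome, with larger and more frequent rises than falls on the deposited values. Of 45037 probe sets 7426 were called (16.5%). Among 18193 genes the calls were 2296 higher ones (12.6%) and 1379 lower ones (7.58%), and the median difference over all genes was 0.05. At least 2-fold rises were seen in 891 genes and falls of that size in 336. For 4-fold the counts were 166 and 43, for 8-fold 42 and 10, for 16-fold 14 and 3, and for 32-fold 6 genes rose and 0 fell. Higher probe sets made up 61.4% of the called ones on the deposited values and 46.4% after quantile normalization, which forces the same distribution on every array, so the balance of rises and falls depends on the scaling. Calls were rare among dim genes: 1.14% and 0.967% of the dimmest 4549 genes rose and fell, against 22.6% and 9.63% of the brightest 4548.

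**Figure D1:**
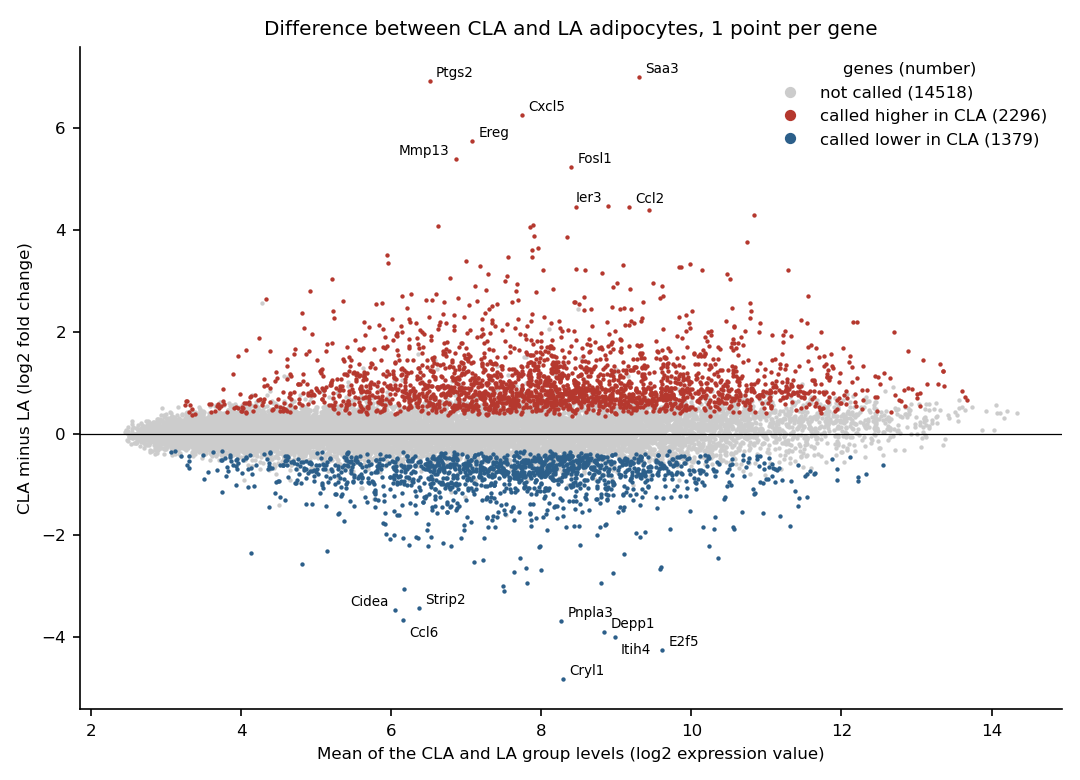
Each point is 1 gene, with the mean of the CLA and LA group levels on the horizontal axis (log2 expression value) and CLA minus LA on the vertical axis (log2 fold change). The 2296 genes called higher reach a difference of 7.0 (Saa3), and the 1379 called lower reach -4.82 (Cryl1).

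Other probe sets of the same gene mostly did not contradict a call. Of the called genes, 2203 had at least 1 further probe set. In 959 of them a further probe set was called the same way, in 75 one was called the opposite way, and in 1186 none was called. Transcripts that moved across the background level were few. In 22 genes every CLA array lay above background and no LA array did, and for 3 of these the rise was at least 4-fold: the cyclooxygenase Ptgs2, the chemokine Cxcl2 and the adhesion molecule Nectin3. In 11 genes every LA array lay above background and no CLA array did, and Vstm2a, a membrane and secreted protein of the preadipocyte lineage, was the 1 of these with a fall of at least 4-fold. Nectin3 and Vstm2a were chosen after their values were seen. Nectin3 had 6.86, 6.74 and 6.63 in CLA, against 3.42, 3.54 and 4.13 in LA, at least 6.85-fold higher (limma adjusted p = 8.78e-06), and Vstm2a had 3.63, 3.42 and 3.55 in CLA, against 6.41, 6.03 and 5.86 in LA, at least 4.61-fold lower (adjusted p = 2.68e-06).

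The 15 genes with the largest rises were led by secreted and signalling products. Saa3, an acute phase apolipoprotein, was at 12.83, 12.77 and 12.81 in CLA, against 5.44, 5.47 and 6.49 in LA, a difference of 7.0 ± 0.23 (limma adjusted p = 1.35e-07). Ptgs2, the inducible enzyme that starts prostaglandin synthesis, was at 10.15, 10.08 and 9.7 in CLA, against 3.19, 2.84 and 3.13 in LA. The LA values lay under background on all 3 arrays, so the rise is given as at least 64.5-fold (adjusted p = 8.32e-08). Cxcl5, a chemokine that attracts neutrophils, was at 11.13, 10.48 and 11.00 in CLA, against 4.25, 3.96 and 5.64 in LA (difference 6.25 ± 0.37). In all of these the CLA arrays lay close together and far above the LA arrays, and LA replicate 3 was the highest LA array for Saa3 and Cxcl5. The epidermal growth factor family ligand Ereg was at 9.98, 9.39 and 10.49 in CLA, against 4.17, 4.14 and 4.32 in LA (difference 5.74 ± 0.22). Fosl1, a subunit of the transcription factor AP-1, was at 10.83, 11.05 and 11.16 in CLA, against 5.75, 5.77 and 5.83 in LA (difference 5.23 ± 0.15). Ifi202b, an interferon-inducible DNA-binding protein, had 11.53, 11.66 and 11.71 in CLA, against 7.57, 7.25 and 6.93 in LA (difference 4.39 ± 0.17), and Mgp, a matrix protein that inhibits calcification, 13.01, 13.05 and 12.85 in CLA, against 8.34, 8.18 and 9.54 in LA (difference 4.29 ± 0.29). The adjusted p-values of these genes lay between 8.32e-08 and 7.62e-06.

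Collagen-degrading enzymes stood among the same 15. Mmp13, a collagenase, was at 9.65, 9.21 and 9.82 in CLA, against 4.13, 4.19 and 4.19 in LA, a difference of 5.39 ± 0.18 (limma adjusted p = 1.35e-07), and Mmp3, stromelysin 1, at 8.61, 8.96 and 8.43 in CLA, against 4.12, 4.52 and 5.13 in LA, a difference of 4.07 ± 0.25 (adjusted p = 4.66e-06). On the LA side both were dim, and LA replicate 3 was the highest for Mmp3. The promoters of these genes are shown because each holds the AP-1 letters TGANTCA. The 150 bases before the annotated start come from RefSeq (GRCm38.p6), from chr9:7272364-7272513 (+ strand) for Mmp13 and chr9:7445672-7445821 (+ strand) for Mmp3, with the match in capitals.
Mmp13: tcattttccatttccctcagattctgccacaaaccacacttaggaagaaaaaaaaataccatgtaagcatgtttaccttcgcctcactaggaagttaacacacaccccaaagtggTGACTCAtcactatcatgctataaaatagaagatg
Mmp3: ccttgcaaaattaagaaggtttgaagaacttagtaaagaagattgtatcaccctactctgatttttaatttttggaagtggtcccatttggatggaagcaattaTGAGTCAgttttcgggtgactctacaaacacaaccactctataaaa
The match began 35 bases before the start of Mmp13 and 46 bases before that of Mmp3. Over windows of 300 bases (250 before and 50 after a start), TGANTCA, which reads the same on both strands, was found in 7.81% of 32851 windows. Counted by gene, it was in a window of 13.2% of the 129 genes with a window that were called higher by at least 4-fold, in 11.4% of the 35 called lower by at least 4-fold and in 7.72% of those not called. Without the 4-fold limit it was in 7.85% of the 1847 genes called higher, near the share of those not called, and in 5.2% of the 1108 called lower. Of the 15 largest rises 8 had a window, and Mmp13 and Mmp3 were the 2 with the letters. Of the 15 largest falls 11 had a window, and that of 2010003K11Rik held the letters. A match is a description of the letters, not a site of binding.

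Among the 15 largest falls were genes of lipid handling and of the adipocyte's secreted proteins. Pnpla3, a lipase-like protein on lipid droplets, was at 6.56, 6.54 and 6.16 in CLA, against 10.26, 10.26 and 9.79 in LA (difference -3.68 ± 0.16). Itih4, a secreted acute phase protein, was at 6.66, 7.08 and 7.18 in CLA, against 11.05, 11.31 and 10.58 in LA (difference -4.0 ± 0.2). Acaa1b, a thiolase of peroxisomal beta-oxidation, was at 6.16, 6.42 and 6.22 in CLA, against 9.19, 9.06 and 8.73 in LA (difference -2.72 ± 0.18). Their CLA and LA arrays were separated by more than 2 units, and limma adjusted p lay between 4.91e-07 and 8.41e-06. In other falls LA replicate 3 was far below the other LA arrays. Cidea, a droplet protein of brown and beige fat, had 4.33, 4.37 and 4.25 in CLA, against 8.53, 8.6 and 6.2 in LA (difference -3.46 ± 0.51, adjusted p = 0.00115, or -4.25 without LA replicate 3), and its call was lost with the pyruvate carboxylase covariate (difference -2.56, adjusted p = 0.0557). Ccl6, a chemokine, had 4.37, 4.45 and 4.17 in CLA, against 8.54, 8.45 and 7.0 in LA (difference -3.66 ± 0.33, -4.16 without LA replicate 3), and Pck1, which makes the precursor of the glycerol backbone from oxaloacetate, 4.65, 4.54 and 4.77 in CLA, against 8.29, 8.14 and 6.67 in LA (difference -3.05 ± 0.34, -3.56 without it).

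Cryl1, E2f5, Nrip2 and Aif1l spread widely within both groups, and none of their further probe sets was called. Cryl1, the lambda crystallin homologue, had 5.53, 5.25 and 6.88 in CLA, against 10.48, 9.5 and 12.14 in LA (difference -4.82 ± 0.63), and E2f5, an E2F transcription factor, 6.93, 7.07 and 8.45 in CLA, against 11.58, 10.89 and 12.74 in LA (difference -4.25 ± 0.59). Nrip2, a nuclear receptor interacting protein, had 5.88, 5.75 and 6.22 in CLA, against 9.0, 7.44 and 10.72 in LA, and Aif1l, an actin-binding protein, 5.53, 6.11 and 7.4 in CLA, against 9.28, 8.26 and 10.29 in LA (differences -3.1 ± 0.64 and -2.93 ± 0.59, limma adjusted p = 0.00736 and 0.00699). All 4 were highest in LA replicate 3 and lowest in LA replicate 2 within LA, and Cryl1, E2f5, Nrip2 and Aif1l were also highest in replicate 3 within CLA. Sparcl1, a matrix protein related to SPARC, at 7.26, 7.35 and 8.13 in CLA, against 10.30, 10.39 and 10.27 in LA, and Strip2, a striatin-interacting protein, at 5.22, 3.92 and 4.84 in CLA, against 8.05, 8.11 and 8.11 in LA, fell with a tight LA group (differences -2.74 ± 0.22 and -3.43 ± 0.28, adjusted p = 2.36e-05 and 2.67e-05). Depp1, a target of FOXO factors, had 6.61, 5.91 and 8.16 in CLA, against 10.89, 10.45 and 11.01 in LA. Each of the 30 genes kept its call when any 1 of the 6 arrays was left out. Their choice, as the largest called differences without overlap on these same arrays, made that likely.

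**Figure D2:**
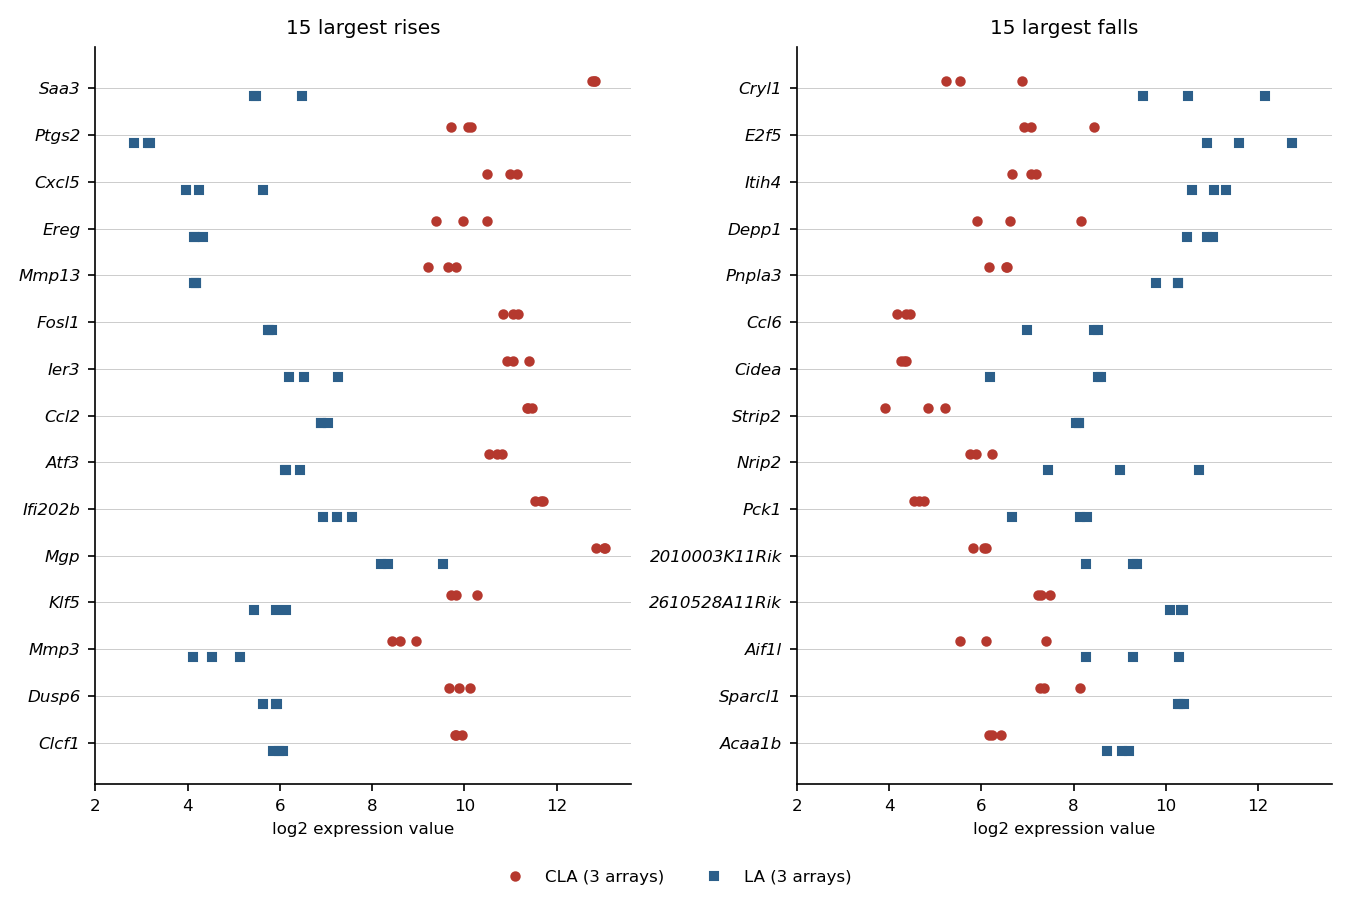
The horizontal axis is the log2 expression value and each row is 1 gene, with circles for the 3 CLA arrays and squares for the 3 LA arrays. CLA and LA arrays do not overlap in any row because the genes were chosen by that rule. The CLA arrays of Saa3 sit between 12.77 and 12.83, and the LA arrays of Cryl1 spread from 9.50 to 12.14.

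Some chemokines and cytokines of the innate response rose, and others did not pass the test. Chemokines of the CXC and CX3C class attract neutrophils, lymphocytes and monocytes, and of 22 measured members of their list 7 rose and 0 fell, against 12.6% and 7.58% of all genes (median 0.11). Cxcl1 was at 12.08, 12.00 and 12.06 in CLA, against 9.14, 8.24 and 9.36 in LA (difference 3.13 ± 0.26). Cxcl2 was at 6.14, 6.87 and 5.95 in CLA, against 3.48, 3.44 and 3.62 in LA, under background on all LA arrays, and at least 5.12-fold higher. The interferon-inducible Cxcl10 was at 7.13, 7.05 and 7.25 in CLA, against 5.03, 4.96 and 4.66 in LA (difference 2.26 ± 0.15, limma adjusted p of the 3 between 8.18e-06 and 2.91e-05). Cxcl13 and Cxcl16, attractants of B and T lymphocytes, did not pass, with differences of 0.1 ± 0.18 and 0.06 ± 0.23. The 1 further probe set of Cxcl16 was called higher, but the mean of its probe sets was not called (0.53, limma adjusted p = 0.0552). Of 27 CC chemokines and receptors 4 rose, among them Ccl7, which attracts monocytes, at 9.88, 9.92 and 9.54 in CLA, against 6.35, 6.22 and 5.84 in LA, and Ccl5 at 7.51, 7.57 and 7.35 in CLA, against 6.01, 6.03 and 5.7 in LA (differences 3.64 ± 0.16 and 1.56 ± 0.13). Ccl6 was the 1 CC member called lower. The lower count was 2 without CLA replicate 3, LA replicate 2 or LA replicate 3.

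NF-kB is the transcription factor family through which many of these stimuli act, and it induces its own inhibitors. Of 22 measured subunits, inhibitors and feedback genes 14 rose and 1 fell (median 0.99), and the rises held the transcription subunit Relb at 8.36, 8.5 and 8.41 in CLA, against 6.16, 5.92 and 6.67 in LA and the inhibitor-like coactivator Bcl3 at 7.5, 7.62 and 7.56 in CLA, against 6.04, 5.97 and 5.69 in LA. The ubiquitin-editing feedback inhibitor Tnfaip3 was at 8.36, 8.59 and 8.37 in CLA, against 6.94, 6.67 and 6.56 in LA, and Tnfaip2, a TNF-induced gene, at 10.33, 10.37 and 10.12 in CLA, against 8.19, 7.76 and 7.54 in LA. Groups did not overlap in any of these, with differences of 2.17 ± 0.17, 1.67 ± 0.14, 1.72 ± 0.15 and 2.44 ± 0.18 (limma adjusted p between 1.21e-05 and 3.32e-05). Ikbkb, a kinase of the pathway, did not pass (difference 0.32 ± 0.14), but was called higher as the mean of its probe sets (0.29, adjusted p = 0.0396). Nfkbia, the classical inhibitor, was chosen after its values were seen: it had 12.17, 12.50 and 12.27 in CLA, against 11.75, 11.67 and 11.44 in LA (difference 0.69 ± 0.14, adjusted p = 0.00581, and 0.148 after quantile normalization).

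The promoters of Cxcl1, Cxcl2 and Nfkbia are shown because each holds a form of the NF-kB site (10 letters, with 1 position free, read on both strands). The 150 bases before the start are from RefSeq (GRCm38.p6), at chr5:90891095-90891244 (+ strand), chr5:90903749-90903898 (+ strand) and chr12:55492648-55492797 (- strand), with the match in capitals.
Cxcl1: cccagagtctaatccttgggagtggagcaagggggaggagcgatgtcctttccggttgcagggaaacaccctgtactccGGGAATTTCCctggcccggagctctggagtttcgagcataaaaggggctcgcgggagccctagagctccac
Cxcl2: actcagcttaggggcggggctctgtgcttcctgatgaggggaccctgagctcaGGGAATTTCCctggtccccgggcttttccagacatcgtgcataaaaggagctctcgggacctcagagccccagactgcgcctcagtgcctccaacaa
Nfkbia: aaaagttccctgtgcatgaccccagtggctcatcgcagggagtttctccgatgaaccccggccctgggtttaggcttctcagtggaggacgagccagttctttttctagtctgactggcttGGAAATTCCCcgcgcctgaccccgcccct
The matches began 71, 97 and 29 bases before the start of Cxcl1, Cxcl2 and Nfkbia. On both strands the letters were found in 135 of 32851 windows (0.411%), and by gene in 6 of 129 genes higher by at least 4-fold, in 0 of 35 lower by at least 4-fold and in 0.531% of the genes not called. Without the 4-fold limit they were in 17 of 1847 genes called higher (0.92%) and in 1 of 1108 called lower.

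Cytokines of the IL-6 family signal through the shared receptor chain gp130, the product of Il6st, and colony stimulating factors act on myeloid cells. Of 17 measured members 8 rose and 0 fell (median 0.41, 1 fell without CLA replicate 3). The ligand Clcf1 was at 9.81, 9.79 and 9.94 in CLA, against 5.97, 6.08 and 5.86 in LA (difference 3.88 ± 0.12), and its receptor chain Il6st at 10.10, 9.97 and 10.05 in CLA, against 9.22, 9.15 and 9.05 in LA (difference 0.9 ± 0.11). The oncostatin M receptor Osmr was at 11.27, 11.20 and 11.23 in CLA, against 9.58, 9.31 and 9.01 in LA (difference 1.93 ± 0.14). The limma adjusted p of Clcf1, Il6st and Osmr were 1.24e-07, 0.000382 and 1.48e-05, and 9 members of the list were not called. Among the latter Il6ra, the IL-6 binding chain, had 0.41 ± 0.17 (adjusted p = 0.145). It was called without CLA replicate 3, with array weights and as the mean of its probe sets (adjusted p = 0.0303, 0.0301 and 0.0344). Il6 itself was dim, at 5.78, 5.67 and 6.54 in CLA, against 3.32, 3.24 and 4.29 in LA (difference 2.38 ± 0.31, adjusted p = 0.00055), and 2 of its LA values lay under background. In the JAK, STAT and SOCS list, the relay behind gp130, 8 of 19 rose and 2 fell (5 rose after quantile normalization). Socs3, the inhibitor induced by that relay, was at 9.13, 8.8 and 9.74 in CLA, against 7.21, 6.75 and 7.18 in LA (difference 2.17 ± 0.26) and Stat3 at 11.14, 11.06 and 10.49 in CLA, against 9.34, 9.86 and 9.95 in LA (difference 1.18 ± 0.2). Stat5a, which acts behind growth hormone and prolactin, fell, with 8.75, 8.67 and 8.89 in CLA, against 9.6, 9.86 and 9.44 in LA (difference -0.86 ± 0.15), but its further probe set was not called, and the gene was not called as the mean of its probe sets (adjusted p = 0.0599).

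In the IL-1 and TNF families the rises were all receptors, and no ligand on the list was called. Of 26 measured members 7 rose and 0 fell, 4 rose with the pyruvate carboxylase covariate, and the median was 0.06. Tnfrsf12a, the receptor of TWEAK, was at 11.12, 11.35 and 11.16 in CLA, against 8.8, 9.0 and 8.61 in LA (difference 2.41 ± 0.14). The IL-1 receptor chains Il1r1 and Il1rap were at 9.38, 9.5 and 9.58 in CLA, against 8.53, 8.18 and 8.31 in LA and at 7.27, 6.95 and 6.82 in CLA, against 6.18, 5.37 and 5.16 in LA (differences 1.15 ± 0.14 and 1.45 ± 0.23, limma adjusted p = 0.000396 and 0.0019), though none of the further probe sets of either chain was called. The Toll-like receptor list had 3 of 19 higher (15.8%) and 1 lower (5.26%), near the shares of all genes, 12.6% and 7.58%. Without CLA replicate 3, 5 were higher. Tlr2, the receptor of bacterial lipoproteins, rose, at 8.13, 7.72 and 7.84 in CLA, against 5.66, 5.6 and 6.08 in LA (difference 2.12 ± 0.15). Nod1, a cytosolic sensor of bacterial cell walls, fell, at 7.66, 7.38 and 7.67 in CLA, against 9.02, 9.09 and 8.95 in LA (difference -1.45 ± 0.12). Of 33 interferon-stimulated genes 7 rose (21.2%) and 3 fell (9.09%). Those counts were unsteady: 4 rose without CLA replicate 1, and 1 fell without CLA replicate 1, CLA replicate 2, LA replicate 1 or LA replicate 2. Ifit1 was at 6.66, 7.19 and 6.37 in CLA, against 4.53, 4.42 and 4.69 in LA (difference 2.19 ± 0.27, adjusted p = 0.000332).

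Acute phase and secreted defence proteins moved in both directions. Of 20 measured members 7 rose and 7 fell (median 0.17). Ptx3, a pentraxin that binds microbes, was at 10.22, 9.98 and 10.64 in CLA, against 6.29, 5.94 and 7.03 in LA (difference 3.86 ± 0.27), and Saa3 rose as given above. Saa1, a serum amyloid of the same gene family as Saa3, was at 5.31, 4.91 and 5.21 in CLA, against 6.74, 6.44 and 6.92 in LA, the opposite direction (difference -1.56 ± 0.15, limma adjusted p = 7.21e-05). Hp, haptoglobin, one of the brightest members, did not pass, with 0.33 ± 0.16 and a 95% interval of -0.01 to 0.68. Further members that were called were chosen after their values were seen. Lcn2, an iron-chelating lipocalin, and C1s1 and C1ra, proteases of the complement cascade, rose by 1.94 ± 0.19, 1.69 ± 0.26 and 1.41 ± 0.14, whereas the orosomucoid Orm2 and the protease inhibitor Serpina3n had -1.58 ± 0.33 and -1.39 ± 0.24 (adjusted p between 8.02e-05 and 0.00743). Saa1 and Orm2 have close paralogues whose transcripts can share probes, so their values may mix family members.

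Ligands of the epidermal growth factor receptor and feedback inhibitors of the ERK cascade behind it were among the rises. In the epidermal growth factor family 6 of 15 measured members rose and 1 fell (median 0.31). Beside Ereg, Hbegf, a ligand that is released from the membrane by proteases, was at 6.45, 6.25 and 6.04 in CLA, against 5.14, 5.42 and 5.13 in LA (difference 1.02 ± 0.15). Adam17, a protease that releases such ligands, was at 9.65, 9.78 and 10.12 in CLA, against 8.9, 8.94 and 8.59 in LA (difference 1.04 ± 0.15). Nrg4, a ligand secreted by brown fat, fell, at 6.26, 6.21 and 6.12 in CLA, against 7.9, 7.61 and 7.32 in LA (difference -1.42 ± 0.15, limma adjusted p of the 3 between 0.000155 and 0.00115). MAP kinase phosphatases and Sprouty proteins are induced by the ERK cascade and dampen it, and of 18 measured members 9 rose and 1 fell (median 0.79). The ERK phosphatase Dusp6 was at 9.87, 10.11 and 9.66 in CLA, against 5.92, 5.63 and 5.94 in LA (difference 4.05 ± 0.16). The nuclear ERK phosphatase Dusp5 was at 8.69, 8.94 and 8.83 in CLA, against 5.37, 5.53 and 5.71 in LA (difference 3.28 ± 0.13). The Sprouty inhibitor Spry2 was at 9.02, 9.28 and 8.72 in CLA, against 6.51, 6.34 and 6.27 in LA (difference 2.63 ± 0.16). Dusp16, which acts on JNK and p38, had 1.83 ± 0.1 (adjusted p of the 4 between 2.11e-07 and 3.65e-06), and Dusp4, another nuclear phosphatase, did not pass, at 9.42, 9.3 and 9.95 in CLA, against 9.34, 9.29 and 8.63 in LA.

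AP-1 is a dimer of Jun, Fos and related ATF and MAF proteins. Of 16 measured members 10 rose and 0 fell (median 1.0). Beside Fosl1, Junb was at 9.36, 9.18 and 9.33 in CLA, against 5.63, 5.72 and 6.09 in LA (difference 3.48 ± 0.16). Jun was at 10.63, 10.65 and 10.96 in CLA, against 7.27, 7.31 and 7.72 in LA (difference 3.31 ± 0.16) and the small MAF protein Maff at 9.25, 9.44 and 8.59 in CLA, against 6.01, 5.99 and 6.01 in LA (difference 3.09 ± 0.19). Atf2, a subunit regulated mainly by phosphorylation, did not pass (difference -0.01 ± 0.23), nor did Maf (difference 0.48 ± 0.25, called without CLA replicate 2 and as the mean of its probe sets, at adjusted p = 0.013 and 0.0135), so the rise was not shared by the whole list. Among the early genes of the EGR, IER, NR4A and MYC families 12 of 23 rose and 2 fell (median 0.71). Ier3, an early gene that protects cells from apoptosis, was at 10.93, 11.05 and 11.40 in CLA, against 6.53, 6.19 and 7.26 in LA, Ier5 at 9.68, 9.84 and 9.81 in CLA, against 7.3, 7.33 and 7.44 in LA and Ier2 at 9.9, 9.8 and 10.24 in CLA, against 7.8, 7.99 and 8.13 in LA (differences 4.47 ± 0.29, 2.42 ± 0.11 and 2.01 ± 0.16, limma adjusted p between 7.17e-07 and 1.98e-05). One of the falls was not called without CLA replicate 1, CLA replicate 3, LA replicate 1 or LA replicate 2.

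Kruppel-like factors, zinc finger proteins several of which regulate fat cell differentiation, showed 9 rises and 2 falls in 15 measured members (median 0.83). Klf5, an early activator of adipogenesis, was at 9.72, 10.28 and 9.83 in CLA, against 5.45, 5.92 and 6.14 in LA (difference 4.1 ± 0.2). Klf4, which acts early in adipogenesis too, was at 8.73, 8.85 and 9.0 in CLA, against 5.98, 5.76 and 5.43 in LA (difference 3.13 ± 0.15). Klf2, which represses adipogenesis in preadipocytes, was at 8.82, 9.24 and 9.01 in CLA, against 5.96, 5.83 and 6.26 in LA (difference 3.01 ± 0.14). Klf6 was at 9.97, 10.16 and 10.41 in CLA, against 7.81, 7.83 and 7.43 in LA (difference 2.49 ± 0.16, limma adjusted p of the 4 between 9.14e-07 and 5.52e-06). Klf15, a late factor that promotes adipocyte metabolism, was chosen after its values were seen and had 8.38, 8.38 and 8.18 in CLA, against 10.50, 10.40 and 10.09 in LA (difference -2.02 ± 0.13). Of the 2 falls 1 was lost without CLA replicate 1, CLA replicate 2, LA replicate 1 or LA replicate 3.

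Other adipogenic transcription factors also changed in both directions: 11 of 32 measured members rose and 10 fell (7 and 4 with the pyruvate carboxylase covariate, median 0.11, or -0.03 after quantile normalization). Cebpb and Cebpd, which open the differentiation programme, were at 12.62, 12.53 and 12.24 in CLA, against 10.78, 11.10 and 10.30 in LA and at 10.48, 10.37 and 10.57 in CLA, against 8.1, 8.28 and 8.21 in LA (differences 1.73 ± 0.19 and 2.27 ± 0.14). Pparg, the receptor that maintains the adipocyte state, was at 10.78, 10.86 and 11.13 in CLA, against 12.38, 12.43 and 11.70 in LA (difference -1.25 ± 0.19, limma adjusted p = 0.00122). Cebpa, its partner in mature cells, did not pass, with 11.24, 11.10 and 11.28 in CLA, against 11.31, 11.61 and 11.11 in LA. Mlxipl, which encodes the glucose-responsive activator ChREBP, fell, at 6.52, 6.26 and 5.83 in CLA, against 8.04, 8.2 and 8.55 in LA (difference -2.06 ± 0.18), and Foxc2 rose, at 7.25, 7.81 and 7.88 in CLA, against 5.35, 5.44 and 5.3 in LA (difference 2.28 ± 0.16). Ppargc1a, a coactivator of mitochondrial genes, was dim, with 6.06, 5.44 and 5.95 in CLA, against 6.51, 6.42 and 6.38 in LA (difference -0.62 ± 0.18, adjusted p = 0.0422), a call lost without CLA replicate 2, LA replicate 1, LA replicate 2 or LA replicate 3 (adjusted p 0.14, 0.123, 0.0941 and 0.0633). Chosen after their values were seen, Ppard had 1.54 ± 0.26, Srebf2, the activator of cholesterol synthesis, 1.3 ± 0.16, Srebf1, its relative that drives fatty acid synthesis, -0.81 ± 0.14, and Ppargc1b -1.45 ± 0.14 (adjusted p between 6.67e-05 and 0.00308).

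The balance of calls among other nuclear receptors depended on how a gene was represented. Of 26 measured members 2 rose and 6 fell by their brightest probe sets, against 4 and 3 with each gene as the mean of its probe sets. The counts by brightest probe set moved to 2 or 3 falls without CLA replicate 1 or 2 or LA replicate 2 and 1 rise without CLA replicate 1 or 2 or LA replicate 1. Esrra, a regulator of mitochondrial genes, was at 8.29, 8.09 and 8.64 in CLA, against 9.5, 9.66 and 9.08 in LA (difference -1.08 ± 0.18). Nr3c1, the glucocorticoid receptor, had -0.76 ± 0.13 on its brightest probe set, while none of its 5 further probe sets was called and their mean was not called. In the clock list 2 of 16 rose (12.5%) and 3 fell (18.75%), against 12.6% and 7.58% of all genes. Dbp, an output factor of the clock, was at 7.84, 8.01 and 8.02 in CLA, against 9.53, 9.37 and 10.33 in LA (difference -1.79 ± 0.24). Nfil3, which opposes it on shared sites, was at 8.64, 8.62 and 8.84 in CLA, against 7.61, 7.43 and 7.0 in LA (difference 1.36 ± 0.16, limma adjusted p = 0.00055 and 0.000323).

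Genes of prostanoid synthesis and reception changed beyond Ptgs2. Of 25 measured members 8 rose and 1 fell (median 0.21). Pla2g4a, the phospholipase that frees arachidonic acid from membranes, was at 8.66, 8.41 and 8.98 in CLA, against 6.4, 6.04 and 5.99 in LA (difference 2.54 ± 0.21). Ptges, which makes prostaglandin E2, was at 9.96, 10.10 and 10.03 in CLA, against 7.94, 8.45 and 8.51 in LA (difference 1.73 ± 0.15). The prostacyclin receptor Ptgir was at 6.44, 6.36 and 6.5 in CLA, against 3.65, 4.19 and 4.21 in LA (difference 2.42 ± 0.2). The limma adjusted p of these 3 genes lay between 2.98e-05 and 4.32e-05. Ptges2, the constitutive synthase, and Pla2g6, another phospholipase, did not pass (0.28 ± 0.14 and -0.02 ± 0.18; as the mean of its probe sets Pla2g6 was called higher, at 0.44). In the cyclic nucleotide and RGS list 5 of 29 rose (17.2%) and 2 fell (6.9%), against 12.6% and 7.58% of all genes. Rgs2, which limits signalling of G protein-coupled receptors, was at 8.06, 7.98 and 8.73 in CLA, against 11.20, 11.33 and 10.23 in LA (difference -2.67 ± 0.28), and all 3 of its further probe sets were called lower. Pde1b, a phosphodiesterase, was at 7.53, 7.92 and 7.48 in CLA, against 6.05, 5.98 and 6.15 in LA (difference 1.58 ± 0.14).

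Growth factors of the TGF-beta, BMP and activin class had 10 rises and 5 falls among 38 measured members, with 4 to 8 falls when 1 array was left out, the most without LA replicate 3. The BMP antagonist Grem1 was at 9.05, 8.81 and 8.19 in CLA, against 5.57, 5.53 and 6.47 in LA and the BMP ligand Gdf5 at 6.09, 6.05 and 6.07 in CLA, against 7.65, 7.67 and 8.28 in LA, differences of 2.82 ± 0.28 and -1.79 ± 0.16. Tgif1, a repressor of TGF-beta signals, was at 10.39, 10.66 and 10.45 in CLA, against 7.53, 7.78 and 7.27 in LA (difference 2.97 ± 0.15). Among angiogenic ligands and hypoxia factors 11 of 25 rose and 2 fell (median 0.41); 1 fell without CLA replicate 1, 2 or 3 or LA replicate 1 or 2, and 5 without LA replicate 3. Pdgfa, a platelet-derived growth factor chain, was at 8.97, 8.97 and 8.41 in CLA, against 6.65, 7.02 and 7.15 in LA (difference 1.84 ± 0.2). Fgf7 was at 9.44, 9.37 and 9.57 in CLA, against 8.14, 7.56 and 7.79 in LA (difference 1.63 ± 0.14) and Angptl4, a lipoprotein lipase inhibitor, at 12.58, 12.32 and 12.45 in CLA, against 11.01, 11.31 and 10.54 in LA (difference 1.5 ± 0.17). In the insulin-like growth factor list 3 of 13 rose and 2 fell. Igf1 itself was at 7.97, 8.38 and 7.93 in CLA, against 9.47, 9.15 and 9.54 in LA (difference -1.29 ± 0.15) and its binding protein Igfbp7 at 12.76, 12.82 and 12.80 in CLA, against 11.23, 11.46 and 11.74 in LA (difference 1.31 ± 0.14). All 3 further probe sets of Igf1 were called lower too. Of 30 Wnt ligands and antagonists 2 rose and 0 fell, a share of risers under that of all genes (5 rose without LA replicate 3, 1 rose without CLA replicate 1, LA replicate 1 or LA replicate 2, and 1 fell without CLA replicate 3 or LA replicate 3).

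Matrix, adhesion and cytoskeleton genes were called mostly in 1 direction. Of 26 measured collagen chains 16 rose and 0 fell (median 0.81, 0.48 after quantile normalization), and 10 rose with the pyruvate carboxylase covariate. The fibrillar chains Col1a2 and Col3a1 were at 13.84, 13.81 and 13.45 in CLA, against 11.86, 12.13 and 12.24 in LA and at 14.11, 13.84 and 13.97 in CLA, against 12.84, 12.95 and 12.43 in LA (differences 1.62 ± 0.17 and 1.23 ± 0.15), and the basement membrane chain Col4a2 at 13.02, 12.97 and 13.04 in CLA, against 11.68, 12.03 and 11.94 in LA (difference 1.13 ± 0.12). These are bright genes (limma adjusted p between 0.000141 and 0.000352). Among matricellular and basement membrane proteins 18 of 41 rose and 1 fell (median 0.47). Postn, periostin, was at 13.05, 12.82 and 12.83 in CLA, against 9.56, 9.55 and 9.95 in LA, and Tnc, tenascin C, at 7.93, 7.85 and 7.56 in CLA, against 5.41, 4.98 and 5.05 in LA (differences 3.21 ± 0.14 and 2.63 ± 0.15). Fn1, fibronectin, did not pass, with 11.52, 11.45 and 11.45 in CLA, against 11.45, 11.61 and 11.03 in LA. Among matrix proteases and inhibitors 16 of 35 rose and 2 fell, 1 of them not without CLA replicate 1, CLA replicate 2, LA replicate 1 or LA replicate 2. Inhibitors rose beside the proteases: Timp1, which blocks matrix metalloproteinases, was at 11.01, 11.08 and 10.81 in CLA, against 8.22, 8.15 and 7.64 in LA (difference 2.97 ± 0.16). Serpinf1, an antiangiogenic serpin, was at 11.99, 12.08 and 11.92 in CLA, against 9.66, 9.98 and 9.84 in LA (difference 2.17 ± 0.11).

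Many receptors for that matrix rose, with 13 of 25 measured members higher and 1 lower (median 0.54, 8 higher with the covariate; 0 were lower without CLA replicate 1, 2 or 3 or LA replicate 1, and 2 without LA replicate 3). Itga5, the fibronectin receptor chain, was at 9.56, 9.61 and 9.66 in CLA, against 6.16, 6.2 and 6.06 in LA (difference 3.47 ± 0.23). The hyaluronan receptor Cd44 was at 10.23, 10.59 and 10.34 in CLA, against 7.14, 7.25 and 7.32 in LA (difference 3.15 ± 0.12). Vcam1, an adhesion molecule for leukocytes, was at 10.63, 10.35 and 10.35 in CLA, against 8.12, 8.14 and 8.41 in LA (difference 2.22 ± 0.13). The proteoglycan Gpc1 was at 8.12, 7.95 and 7.92 in CLA, against 4.99, 5.52 and 5.73 in LA (difference 2.59 ± 0.18, limma adjusted p of the 4 between 2.11e-07 and 8.41e-06). In the actin cytoskeleton list 25 of 35 rose and 3 fell (1 fell without CLA replicate 2), and its median of 1.24 (0.97 after quantile normalization) was the highest of all lists. Zyx, zyxin, a focal adhesion protein, was at 10.99, 11.11 and 11.08 in CLA, against 7.87, 8.31 and 8.29 in LA (difference 2.91 ± 0.21). Tagln2, an actin cross-linker, was at 9.76, 9.91 and 10.08 in CLA, against 7.26, 7.44 and 6.99 in LA (difference 2.68 ± 0.16) and Pdlim7, an adaptor on actin filaments, at 9.46, 9.67 and 10.08 in CLA, against 6.91, 7.45 and 7.07 in LA (difference 2.6 ± 0.19). Vcl, vinculin, did not pass, with 10.99, 10.55 and 11.27 in CLA, against 10.70, 10.71 and 10.24 in LA.

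YAP and SRF are transcriptional regulators that respond to tension and to actin assembly, and of 16 measured targets 11 rose and 0 fell (median 0.9; 6 rose without CLA replicate 1). The matricellular protein Ccn1 was at 9.03, 9.09 and 9.84 in CLA, against 6.44, 6.51 and 6.67 in LA (difference 2.78 ± 0.3) and the receptor kinase Axl at 9.61, 9.58 and 9.51 in CLA, against 7.39, 7.72 and 8.0 in LA (difference 1.87 ± 0.16). Ccn2, connective tissue growth factor, was under background on all LA arrays and at 5.45, 5.59 and 4.56 in CLA, at least 2.35-fold higher (limma adjusted p = 0.000792). Yap1 itself did not pass (difference 0.23 ± 0.15). Among surface genes of preadipocytes and fibroblasts 9 of 17 rose and 0 fell (median 0.53). Pdgfra, the receptor that marks adipocyte progenitors, was at 11.85, 11.34 and 11.49 in CLA, against 8.94, 8.97 and 10.16 in LA (difference 2.2 ± 0.29). The mesenchymal factors Twist1 and Prrx1 were at 9.17, 8.82 and 9.0 in CLA, against 7.44, 7.28 and 7.06 in LA and at 10.75, 10.86 and 10.78 in CLA, against 9.14, 8.95 and 9.21 in LA (differences 1.73 ± 0.14 and 1.69 ± 0.15). Zfp423, a factor of preadipocyte commitment, did not pass (0.3 ± 0.18), nor did Snai2 (0.41 ± 0.21, called without LA replicate 3 and with array weights, at adjusted p = 0.0104 and 0.0143). The summed level of the 17 genes, on a log2 scale, was 13.96 to 14.26 on CLA arrays and 12.43 to 12.81 on LA arrays. In bulk RNA a change in the number of cells of a type and a change in RNA per cell cannot be told apart.

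**Figure D3:**
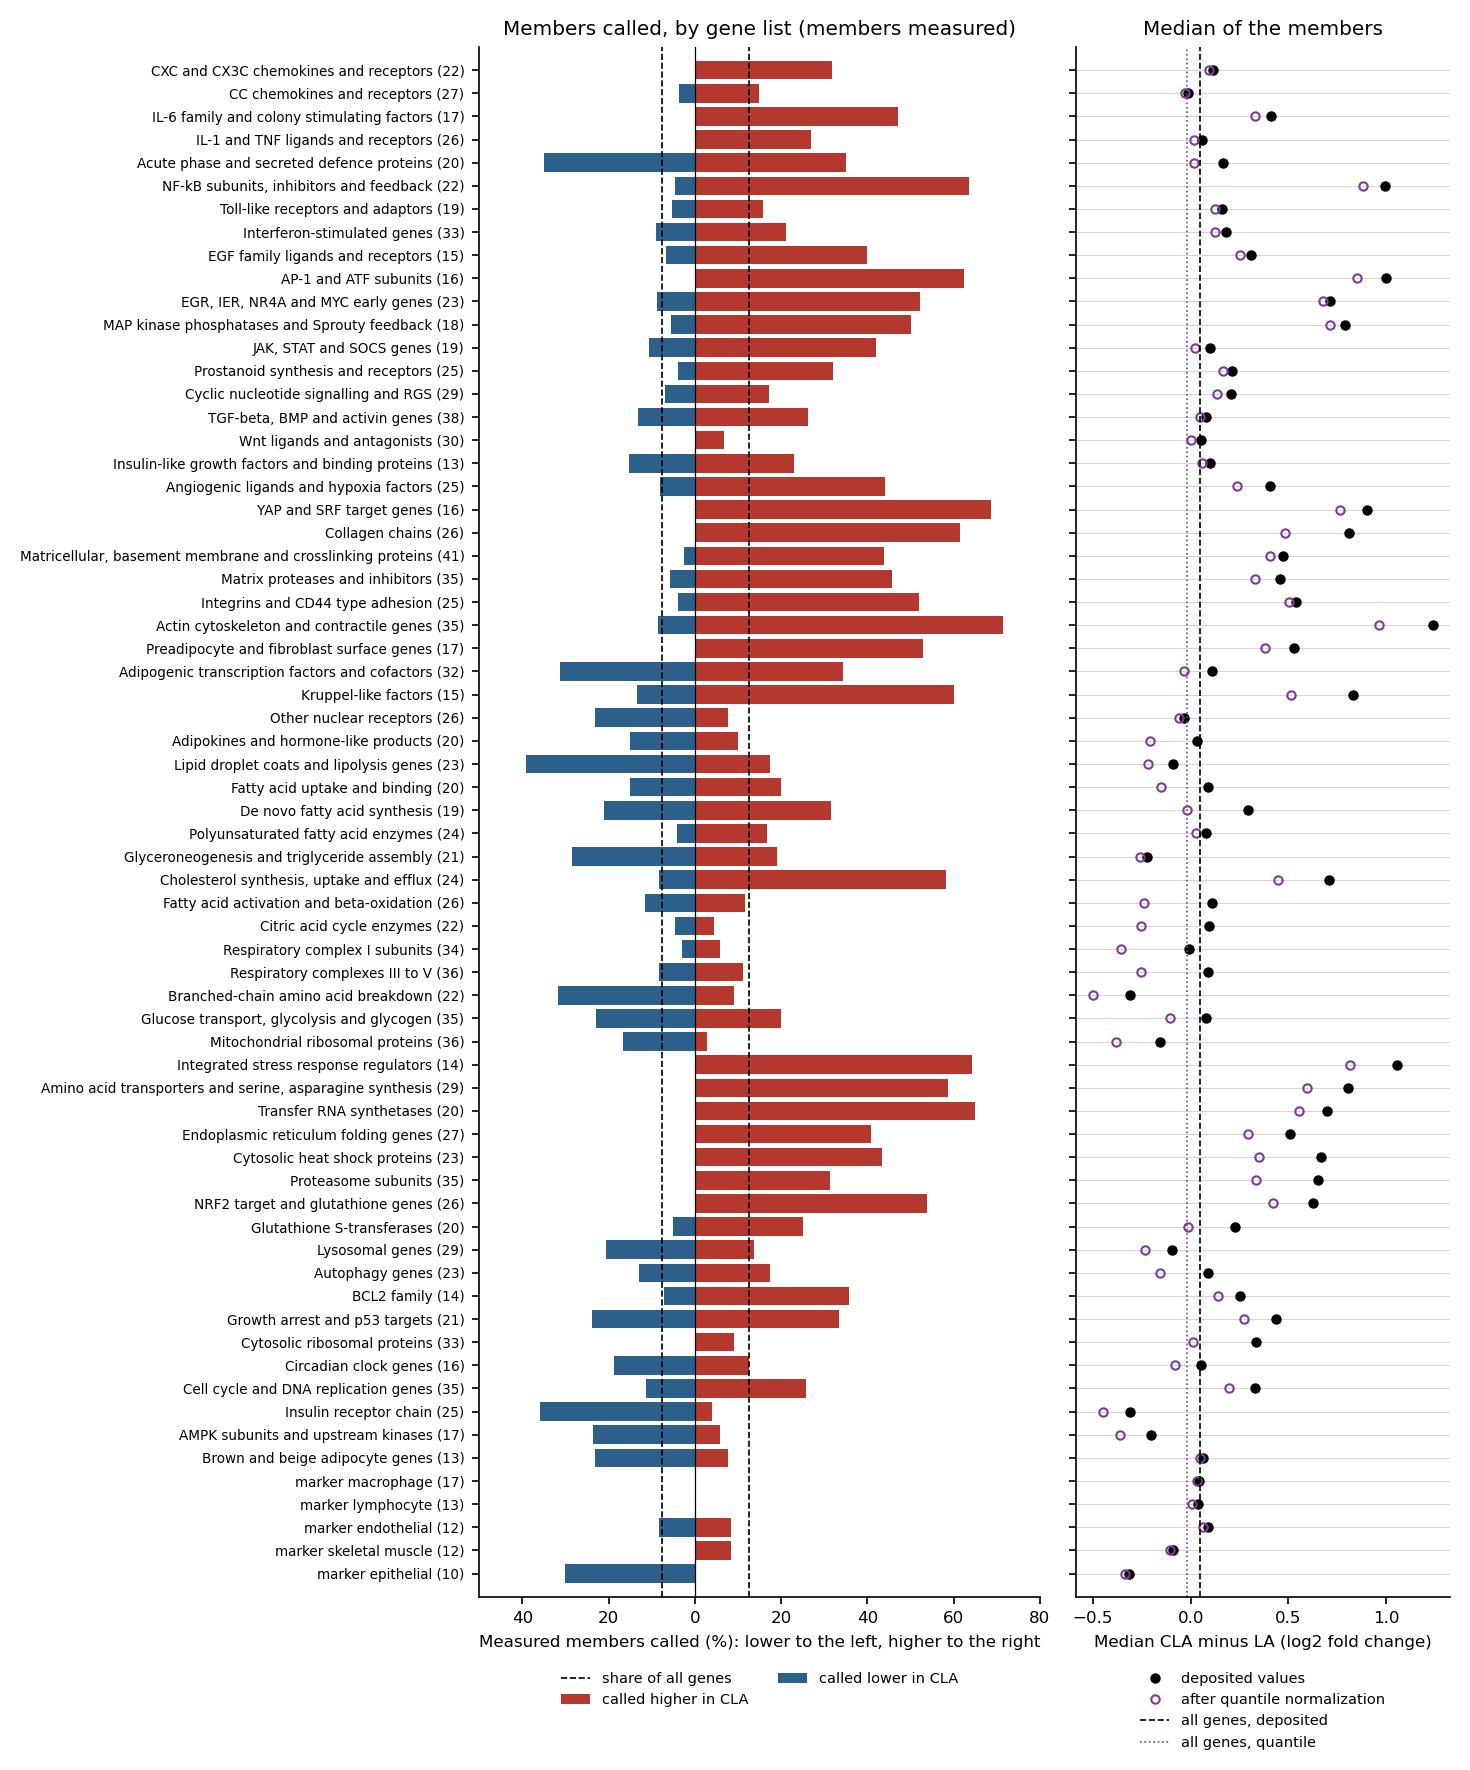
Left, the percent of each list's measured members (number in brackets) called higher in CLA (right of 0) or lower (left of 0), with dashed lines at the shares of all genes, 12.6% and 7.58%. Right, the median log2 fold change of the members on the deposited values (filled) and after quantile normalization (open); the actin cytoskeleton list reaches 1.24, while the branched-chain amino acid list lies at -0.31.

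Lipid droplet genes changed in both directions. Of 23 measured droplet and lipolysis genes 4 rose and 9 fell (5 fell with the pyruvate carboxylase covariate, median -0.09). Plin2, the coat protein found on droplets of most cell types, was at 13.65, 13.77 and 13.68 in CLA, against 11.70, 12.08 and 11.30 in LA (difference 2.01 ± 0.17). Cidec, which fuses droplets in white fat, was at 13.68, 13.48 and 13.74 in CLA, against 12.50, 12.99 and 12.45 in LA (difference 0.98 ± 0.16, limma adjusted p = 0.00227, and 0.0746 with the covariate, where the difference was 0.8). Bscl2, seipin, which organises droplet formation, was at 9.74, 9.99 and 9.67 in CLA, against 11.12, 11.16 and 10.96 in LA (difference -1.28 ± 0.13). The carboxylesterase Ces1f was at 7.83, 7.67 and 8.45 in CLA, against 9.72, 9.7 and 9.83 in LA (difference -1.77 ± 0.18). The chief lipases did not pass. Pnpla2, adipose triglyceride lipase, had 0.33 ± 0.18 with a 95% interval of -0.07 to 0.73, and Lipe, hormone-sensitive lipase, -0.44 ± 0.19 with -0.86 to -0.02. After quantile normalization Lipe was called lower (-0.76, adjusted p = 0.0153).

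Enzymes that build fat changed in both directions. In triglyceride assembly 4 of 21 rose and 6 fell; 10 fell after quantile normalization, and 3 fell without CLA replicate 1, CLA replicate 2 or LA replicate 2. Gpam, the acyltransferase of the entry step, was at 9.16, 9.24 and 9.02 in CLA, against 11.89, 11.70 and 11.15 in LA (difference -2.44 ± 0.19). Lpin2, a phosphatidate phosphatase, was at 9.5, 9.65 and 9.42 in CLA, against 8.23, 8.18 and 7.75 in LA (difference 1.47 ± 0.14). In fatty acid synthesis 6 of 19 rose and 4 fell, and 2 fell without CLA replicate 2, LA replicate 1 or LA replicate 2. Acacb, the acetyl-CoA carboxylase that controls fatty acid entry into mitochondria, was at 7.05, 6.92 and 6.74 in CLA, against 8.19, 8.21 and 8.61 in LA (difference -1.44 ± 0.15), whereas Me1, malic enzyme, a source of NADPH, was at 12.18, 12.29 and 12.22 in CLA, against 10.97, 11.22 and 10.66 in LA (difference 1.28 ± 0.14, limma adjusted p = 0.00013 and 0.000179). The stearoyl-CoA desaturases Scd1 and Scd2 are bright and did not pass (0.31 ± 0.2 and -0.22 ± 0.23; Scd2 was called lower without LA replicate 3 and after quantile normalization, at adjusted p = 0.0443 and 0.00616). Among enzymes of polyunsaturated fatty acids, the class to which CLA and LA belong, 4 of 24 rose (16.7%) and 1 fell (4.17%). The shares of all genes were 12.6% and 7.58%. Fads3, a desaturase relative, was at 11.92, 12.21 and 11.88 in CLA, against 10.67, 11.06 and 10.58 in LA (difference 1.23 ± 0.15), and the elongation enzymes Hacd1 and Hsd17b12 had 0.85 ± 0.12 and 1.19 ± 0.2 (adjusted p = 0.000297, 0.000688 and 0.00242). The 1 fall was not called without any of CLA replicates 1, 2 or 3 or LA replicates 1 or 2.

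Cholesterol synthesis genes were called mostly higher. Of 24 measured genes of synthesis, uptake and efflux 14 rose and 2 fell (median 0.71, 0.45 after quantile normalization). Fdps, which makes farnesyl diphosphate, was at 12.33, 12.40 and 12.36 in CLA, against 11.21, 11.59 and 11.13 in LA (difference 1.05 ± 0.13), and the synthesis enzymes Lss and Mvd rose by 1.33 ± 0.11 and 1.26 ± 0.11 (limma adjusted p = 0.0004, 2.67e-05 and 4.57e-05). Hmgcs1, at the head of the pathway, scattered, with 11.90, 12.03 and 12.60 in CLA, against 12.30, 12.29 and 11.11 in LA, and did not pass. Both falls were cholesterol exporters. Abcg1 was at 8.55, 8.74 and 8.42 in CLA, against 9.85, 9.88 and 9.62 in LA (difference -1.21 ± 0.12). Abca1, chosen after its values were seen, was at 10.87, 10.59 and 10.78 in CLA, against 11.91, 11.86 and 11.21 in LA (difference -0.91 ± 0.19, adjusted p = 0.00887). Both are known targets of the sterol-sensing LXR receptors.

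Calls among genes of fatty acid uptake and binding made up 20% higher and 15% lower, and among those of oxidation 11.5% each way, against 12.6% and 7.58% of all genes. In the uptake and binding list 4 of 20 rose and 3 fell, and 2 rose without CLA replicate 1 or LA replicate 1. Ffar4, the surface receptor for long-chain polyunsaturated fatty acids, was at 4.95, 4.75 and 5.11 in CLA, against 7.0, 6.76 and 6.99 in LA (difference -1.98 ± 0.15, limma adjusted p = 2.00e-05). Acsl4, an acyl-CoA synthetase that prefers arachidonic acid, was at 10.18, 9.91 and 10.52 in CLA, against 9.08, 8.86 and 7.44 in LA (difference 1.74 ± 0.35, adjusted p = 0.00714, and 0.0636 with the covariate, where the difference was 1.89). The binding proteins Fabp4 and Fabp5 were near the top of the scale and did not pass (0.4 ± 0.22 and 0.06 ± 0.21), though after quantile normalization Fabp5 was called in the opposite direction (-0.41, adjusted p = 0.0196). In beta-oxidation 3 of 26 rose and 3 fell, but 8 fell after quantile normalization. Acot2, a mitochondrial thioesterase, was at 11.18, 11.39 and 10.26 in CLA, against 9.17, 8.98 and 8.63 in LA (difference 2.02 ± 0.3). Cpt1a, the gate to mitochondrial oxidation, was at 8.77, 8.57 and 8.87 in CLA, against 7.93, 7.94 and 7.7 in LA (difference 0.88 ± 0.12).

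On the deposited values, lists of the citric acid cycle, respiratory complexes and mitochondrial ribosomes had 2.78 to 11.1% rises and 2.94 to 16.7% falls. The shares of all genes were 12.6% and 7.58%, and the number of falls in these lists depended on scaling. For the citric acid cycle 1 of 22 rose and 1 fell (5 fell after quantile normalization; the rise was not called without CLA replicate 1, CLA replicate 2, LA replicate 1 or LA replicate 3, and 2 fell without CLA replicate 3 or LA replicate 3). Of 34 complex I subunits 2 rose and 1 fell, and with 1 array left out 0 to 3 rose and 0 to 4 fell, 4 of them without LA replicate 3. After quantile normalization 0 rose and 16 fell. Complexes III to V had 4 rises and 3 falls in 36 genes, with 0 to 7 rises when 1 array was left out (0 without CLA replicate 2, 1 without CLA replicate 1, 2 without CLA replicate 3 and 7 without LA replicate 2) and 9 falls after quantile normalization. Among 36 mitochondrial ribosomal proteins 1 rose and 6 fell. Those falls were 0 in a fit of the 6 arrays alone, 0 without CLA replicate 1, CLA replicate 2, LA replicate 1 or LA replicate 2, 3 without CLA replicate 3 and 12 without LA replicate 3, and 2 rose without LA replicate 2. A pair of muscle- and brown fat-type cytochrome oxidase subunits did fall under every alternative: Cox7a1 was at 5.74, 5.65 and 6.13 in CLA, against 8.44, 8.42 and 8.21 in LA and Cox8b at 6.82, 6.92 and 6.84 in CLA, against 8.81, 8.8 and 9.67 in LA (differences -2.51 ± 0.19 and -2.23 ± 0.2). In the brown and beige list 1 of 13 rose and 3 fell, with 2 rises without CLA replicate 3, and 6 of the 13 lay above background in at least 1 group. Ucp1, the uncoupling protein, was dim, with 4.74, 4.55 and 4.25 in CLA, against 4.28, 4.25 and 3.93 in LA, and did not pass (adjusted p = 0.148, and 0.0452 without CLA replicate 3).

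Breakdown of branched-chain amino acids, a pathway that is active in mature fat cells, had 7 falls and 2 rises in 22 measured genes (median -0.31; 12 fell after quantile normalization). Ppm1k, the phosphatase that activates the rate-limiting dehydrogenase, was at 6.76, 7.42 and 7.01 in CLA, against 8.78, 8.66 and 8.43 in LA (difference -1.56 ± 0.17). Acadsb, an acyl-CoA dehydrogenase, and Mccc2, a carboxylase subunit, fell, with differences of -1.1 ± 0.17 and -0.87 ± 0.13. The rises were the transaminases of the opening, reversible step, Bcat1 at 5.91, 5.78 and 5.68 in CLA, against 4.97, 4.86 and 4.94 in LA and Bcat2, chosen after its values were seen, at 11.03, 10.98 and 11.35 in CLA, against 8.54, 9.73 and 9.64 in LA (differences 0.86 ± 0.11 and 1.82 ± 0.38, limma adjusted p = 0.00042 and 0.0086).

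Genes of glucose use were called in both directions. Of 35 measured genes of glucose transport, glycolysis and glycogen 7 rose and 8 fell; 4 rose without CLA replicate 1, 2 or 3, and 5 fell without CLA replicate 1, LA replicate 1 or LA replicate 2. Slc2a1, the basal glucose transporter, was at 11.98, 12.14 and 11.62 in CLA, against 10.12, 10.05 and 8.75 in LA (difference 2.27 ± 0.32). Slc2a4, the insulin-responsive transporter, was lower on average, with 8.71, 9.05 and 8.62 in CLA, against 8.98, 9.72 and 9.48 in LA, and did not pass (difference -0.6 ± 0.19, limma adjusted p = 0.0568), although it was called after median centring, after quantile normalization, with dim probe sets left out, with array weights, as the mean of its probe sets and without LA replicate 1 (adjusted p = 0.0395, 0.0281, 0.0408, 0.0424, 0.000109 and 0.0128). Ppp1r3c, which targets a phosphatase to glycogen, was at 9.87, 9.42 and 9.61 in CLA, against 11.53, 11.51 and 11.48 in LA (difference -1.87 ± 0.15). The glycogen phosphorylase Pygb was at 9.85, 9.82 and 9.82 in CLA, against 10.81, 11.32 and 11.06 in LA (difference -1.24 ± 0.14). In the insulin receptor chain 9 of 25 fell and 1 rose (median -0.31, 4 fell with the covariate, and 2 rose without CLA replicate 3 or LA replicate 3). With each gene as the mean of its probe sets 6 fell and 2 rose, and the median turned to 0.03. Tbc1d4, a Rab GTPase-activating protein on transporter vesicles, was at 7.33, 6.84 and 7.44 in CLA, against 9.09, 8.96 and 8.49 in LA (difference -1.64 ± 0.19). Shc1, an adaptor towards the ERK cascade, was at 10.45, 10.33 and 10.41 in CLA, against 9.34, 9.45 and 9.03 in LA (difference 1.13 ± 0.19). Akt1 did not pass (difference 0.33 ± 0.18), but was called higher as the mean of its probe sets (0.4, adjusted p = 0.0419).

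AMPK, the energy-sensing kinase, had 1 rise and 4 falls in 17 measured subunits and upstream kinases (2 fell without CLA replicate 1 or 2, and 2 rose without LA replicate 3). That balance was not kept with each gene as the mean of its probe sets, where 2 rose and 2 fell and the median was 0.1, against -0.2 by the brightest probe sets. The regulatory subunit Prkab2 was at 7.71, 7.88 and 7.68 in CLA, against 6.39, 6.44 and 6.3 in LA (difference 1.38 ± 0.15). Sik2, an AMPK-related kinase, was at 9.44, 9.5 and 9.62 in CLA, against 10.76, 10.77 and 10.29 in LA (difference -1.09 ± 0.14, limma adjusted p = 0.000156 and 0.00049). The catalytic subunits Prkaa1 and Prkaa2 did not pass, with 95% intervals of -1.66 to 0.56 and -0.1 to 0.43. Among adipokines 2 of 20 rose (10%) and 3 fell (15%), against 12.6% and 7.58% of all genes. Metrnl, a secreted protein of fat and muscle, was at 8.73, 8.87 and 8.72 in CLA, against 6.64, 7.09 and 7.32 in LA (difference 1.76 ± 0.19). Retn, resistin, was at 12.30, 12.22 and 12.23 in CLA, against 12.89, 13.04 and 12.68 in LA (difference -0.62 ± 0.12, adjusted p = 0.00563, and 0.143 with the covariate, where the difference was -0.46). Adipoq was near the top of the scale, at 14.09, 14.00 and 14.12 in CLA, against 14.07, 14.38 and 13.53 in LA, and did not pass, but after quantile normalization it was called lower (-0.4, adjusted p = 0.0116). Lep, leptin, did not pass and was near background in both groups, above it on 0 of 3 CLA arrays and 1 of 3 LA arrays, so no difference is given.

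Most measured genes of the integrated stress response, which cells induce when amino acids are short or unfolded protein accumulates, rose. Of 14 measured regulators 9 rose and 0 fell (median 1.05; 1 fell without CLA replicate 3 or LA replicate 3). Atf3 was at 10.53, 10.70 and 10.82 in CLA, against 6.13, 6.45 and 6.11 in LA (difference 4.45 ± 0.15). Atf4, the central activator, was at 12.33, 12.50 and 12.37 in CLA, against 10.69, 10.90 and 10.52 in LA (difference 1.7 ± 0.12) and Ppp1r15a, the phosphatase subunit that ends the response, at 10.35, 10.64 and 10.21 in CLA, against 7.39, 7.65 and 7.51 in LA (difference 2.88 ± 0.15, limma adjusted p of the 3 between 1.35e-07 and 1.19e-05). The sensor kinase Eif2ak3 did not pass (difference 0.04 ± 0.12). Among amino acid transporters and enzymes of serine and asparagine synthesis 17 of 29 rose and 0 fell (median 0.81; 1 fell without LA replicate 1 or LA replicate 3). The cystine transporter Slc7a11 was at 7.43, 7.85 and 7.8 in CLA, against 4.53, 4.27 and 3.75 in LA, its partner chain Slc3a2 at 12.23, 12.28 and 12.26 in CLA, against 10.10, 10.59 and 10.00 in LA, and Slc7a5, which shares that partner, at 10.13, 10.30 and 10.29 in CLA, against 8.07, 8.35 and 7.86 in LA (differences 3.51 ± 0.2, 2.02 ± 0.16 and 2.14 ± 0.15). The mitochondrial folate enzyme Mthfd2 was at 11.20, 11.38 and 11.10 in CLA, against 9.22, 9.33 and 9.13 in LA (difference 2.0 ± 0.11), while Slc1a5, a glutamine transporter, did not pass (-0.04 ± 0.22).

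The promoters of Atf3 and Slc7a11 are shown because they hold, on either strand, the letters TGATGCAA of a composite C/EBP and ATF element that ATF4 is known to bind. The 150 bases before the start are from RefSeq (GRCm38.p6), at chr1:191183334-191183483 (- strand) and chr3:50443614-50443763 (- strand), with matches in capitals.
Atf3: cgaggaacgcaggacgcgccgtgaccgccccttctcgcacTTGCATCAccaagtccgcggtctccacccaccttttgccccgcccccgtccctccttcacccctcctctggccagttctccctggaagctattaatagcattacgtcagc
Slc7a11: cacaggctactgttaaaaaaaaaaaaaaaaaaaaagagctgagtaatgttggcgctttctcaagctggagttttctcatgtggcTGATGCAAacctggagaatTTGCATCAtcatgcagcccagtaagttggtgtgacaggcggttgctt
Atf3 had 1 match, beginning 110 bases before the start, and Slc7a11 had 2, beginning 66 and 47 bases before it. The letters were found in 0.895% of 32851 windows, and by gene in 3 of 129 genes higher by at least 4-fold, in 0 of 35 lower by at least 4-fold and in 0.705% of the genes not called. Without the 4-fold limit they were in 23 of 1847 genes called higher (1.2%) and in 12 of 1108 called lower (1.08%).

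Among genes of protein synthesis and folding every call on the deposited values was a higher one, though many members did not pass. Of 20 transfer RNA synthetases, which load amino acids onto transfer RNAs, 13 rose and 0 fell (median 0.7, 6 rose with the covariate). Aars was at 11.93, 11.85 and 11.85 in CLA, against 10.54, 10.82 and 10.14 in LA and Cars at 8.82, 8.85 and 8.89 in CLA, against 7.59, 7.87 and 7.57 in LA (differences 1.38 ± 0.17 and 1.18 ± 0.11). Of 27 endoplasmic reticulum folding genes 11 rose and 0 fell (median 0.51; 1 fell without LA replicate 3). The sensor chaperone Hspa5 was at 13.83, 13.83 and 13.79 in CLA, against 12.63, 12.68 and 11.79 in LA (difference 1.45 ± 0.2), with LA replicate 3 the lowest, and Edem1, which sorts misfolded proteins for disposal, had 1.13 ± 0.15. Xbp1 did not pass (difference 0.23 ± 0.19). Of 23 cytosolic heat shock proteins 10 rose and 0 fell (median 0.67, 6 rose with the covariate). Hspb1, a small chaperone that also binds actin, was at 12.00, 12.26 and 11.85 in CLA, against 9.05, 9.33 and 8.6 in LA (difference 3.04 ± 0.18). Hsph1, a partner of HSP70, was at 10.91, 11.04 and 10.97 in CLA, against 9.67, 9.83 and 8.71 in LA (difference 1.57 ± 0.24). Hspa8, the constitutive HSP70, was among the brightest and did not pass (difference 0.67 ± 0.28, called without LA replicate 2 at adjusted p = 0.0493). Proteasome subunits, of which 11 of 35 rose and 0 fell (median 0.65), depended on single arrays: 21 rose without LA replicate 2, and 7 without CLA replicate 1 or without CLA replicate 2. Of 33 cytosolic ribosomal proteins 3 rose (9.09%) and 0 fell, against 12.6% and 7.58% of all genes. With 1 array left out 0 to 9 of these proteins rose, the most without LA replicate 2. After median centring 0 of them rose, and as means of probe sets 7 did. Their median was 0.34, or 0.01 after quantile normalization.

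Antioxidant genes under the factor NRF2 rose in 14 of 26 measured cases, with 0 falls (median 0.62; 1 fell without LA replicate 3). Hmox1, which breaks down heme, was at 12.39, 12.54 and 12.93 in CLA, against 8.79, 8.97 and 8.83 in LA (difference 3.76 ± 0.16). Sqstm1, an autophagy receptor that feeds back on NRF2, was at 13.24, 13.27 and 13.40 in CLA, against 11.13, 11.41 and 10.82 in LA (difference 2.18 ± 0.16). Nfe2l2, which encodes NRF2, was itself at 10.96, 10.88 and 10.85 in CLA, against 9.55, 9.41 and 9.12 in LA (difference 1.53 ± 0.12, limma adjusted p of the 3 between 4.76e-07 and 2.58e-05). Superoxide dismutase 1, from Sod1, did not pass, with 13.18, 13.25 and 12.88 in CLA, against 13.19, 13.14 and 12.89 in LA. Of 20 glutathione S-transferases 5 rose and 1 fell, but 1 to 3 rose without CLA replicate 1, 2 or 3 or LA replicate 1, and 2 fell without LA replicate 1 or 3. Gsta3 was at 6.3, 6.22 and 6.32 in CLA, against 5.5, 5.15 and 4.62 in LA (difference 1.19 ± 0.19). Lysosomal genes had 4 rises (13.8%) and 6 falls (20.7%) in 29, against 12.6% and 7.58% of all genes. They had 1 rise and 2 falls without CLA replicate 1, and 2 rises and 3 falls without CLA replicate 2. Autophagy genes had 4 and 3 in 23, with 2 rises without CLA replicate 2 or LA replicate 1, 1 fall without CLA replicate 1 and 5 without LA replicate 3. Ctsd, a lysosomal protease, was at 12.14, 12.15 and 12.11 in CLA, against 11.10, 11.54 and 10.85 in LA (difference 0.97 ± 0.16).

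Growth arrest genes and cell cycle genes both held risers. Among p53 and growth arrest targets 7 of 21 rose and 5 fell (median 0.44), and 3 fell without CLA replicate 1, LA replicate 1 or LA replicate 2. Gadd45a and Gadd45b, stress-induced inhibitors of growth, were at 10.58, 10.56 and 10.68 in CLA, against 7.82, 7.79 and 7.69 in LA and at 8.34, 8.75 and 8.22 in CLA, against 6.39, 6.48 and 6.1 in LA (differences 2.84 ± 0.12 and 2.11 ± 0.16). Cdkn2b, an inhibitor of cyclin D kinases, was at 10.39, 10.27 and 10.39 in CLA, against 8.69, 8.8 and 8.69 in LA (difference 1.62 ± 0.1). Plk2, a stress-induced kinase, was at 8.38, 8.55 and 8.54 in CLA, against 6.35, 6.59 and 6.41 in LA (difference 2.04 ± 0.12, limma adjusted p of the 4 between 5.10e-07 and 1.62e-05). In the cell cycle list 9 of 35 rose and 4 fell; 16 rose without LA replicate 3, and 2 fell without CLA replicate 1. Ccnd1, cyclin D1, the cyclin of early G1, was at 8.78, 8.6 and 9.14 in CLA, against 7.51, 7.4 and 7.72 in LA (difference 1.3 ± 0.15). Ccna2, the S phase cyclin, was at 7.82, 7.85 and 7.85 in CLA, against 5.81, 5.78 and 6.89 in LA (difference 1.68 ± 0.25). Cdk4 did not pass (-0.04 ± 0.13). In the BCL2 family 5 of 14 rose and 1 fell, counts that fell to 2 rises without CLA replicate 1, CLA replicate 2 or LA replicate 1, to 3 rises without LA replicate 3, and to 0 falls without CLA replicate 1, 2 or 3 or LA replicate 1 or 2. Mcl1, a short-lived survival protein, was at 10.80, 10.77 and 11.10 in CLA, against 10.03, 10.05 and 9.55 in LA (difference 1.01 ± 0.15).

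A stricter test asked whether a change exceeded 1.5-fold. Of the called genes named here, Abca1, Acadsb, Acsl4, Adam17, Bcat1, Bcat2, Cidec, Cpt1a, Ctsd, Edem1, Esrra, Fdps, Gsta3, Hacd1, Hbegf, Hsd17b12, Il1rap, Il6st, Mccc2, Mcl1, Nfkbia, Nr3c1, Orm2, Ppard, Pparg, Ppargc1a, Retn, Serpina3n, Shc1, Sik2, Srebf1, Stat3 and Stat5a did not pass it. With the pyruvate carboxylase 3′ minus 5′ measure as a covariate, Abca1, Acsl4, Bcat2, Cidea, Cidec, Ppard, Ppargc1a, Retn, Serpina3n and Srebf1 were no longer called. That measure separated all CLA arrays from all LA arrays, so a call kept or lost in this fit cannot tell the measure from the group. Differences with the covariate were over 1.5 times smaller for Abca1, Bcat2 and Ppard, at -0.55, 1.16 and 0.94. For the others they moved less, with Acsl4 at 1.89, Cidea at -2.56, Cidec at 0.8, Ppargc1a at -0.6, Retn at -0.46, Serpina3n at -1.26 and Srebf1 at -0.65.

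Among markers of other cell types 0 to 8.33% of a list were called higher, against 12.6% of all genes. Lower calls made up 30% of the epithelial list and 0 to 8.33% of the others, against 7.58% of all genes. Of 17 macrophage markers 0 rose and 0 fell (2 fell without LA replicate 3, 1 fell without CLA replicate 2, and 1 rose and 1 fell without LA replicate 2), 5 were at background on all 6 arrays, and their summed level on a log2 scale was 8.60 to 8.99 in CLA and 8.81 to 10.25 in LA. Of 13 lymphocyte markers 0 were called (1 rose without CLA replicate 3), with summed levels of 8.66 to 8.92 in CLA and 8.71 to 9.21 in LA. Of 12 endothelial markers 1 rose, not without CLA replicate 1 or 2 or LA replicate 1 or 3, and 1 fell, not without any 1 of the 6 arrays, with 8.41 to 8.83 in CLA and 8.26 to 8.47 in LA. Of 12 skeletal muscle markers 1 rose, not without CLA replicate 2 or LA replicate 2, and 1 fell without CLA replicate 2 or LA replicate 1, with 7.8 to 8.0 in CLA and 7.99 to 8.19 in LA. Of 10 epithelial markers 3 fell (1 without CLA replicate 1, CLA replicate 2 or LA replicate 2) and 0 rose (1 without CLA replicate 3 or LA replicate 2), led by the keratin Krt18 at 4.95, 4.99 and 4.42 in CLA, against 6.27, 6.11 and 6.26 in LA (difference -1.43 ± 0.17, limma adjusted p = 0.000313), with summed levels of 9.22 to 9.48 in CLA and 9.26 to 9.55 in LA. Their part in the results above was not tested.

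The phenformin arrays allowed a test of whether the leading CLA levels differed from those under another treatment. CLA against phenformin shares the CLA arrays with the comparison above, its doses and times are not known to be matched, and 1147 of 18193 genes were called in it (6.3%), 428 of them higher and 719 lower in CLA than in phenformin. Of the 15 largest rises over LA, which were chosen for high values on the same CLA arrays, 11 were also higher in CLA than in phenformin and 0 were lower, and of the 15 largest falls 4 were also lower and 0 were higher. Ereg was at 9.98, 9.39 and 10.49 in CLA, 4.71, 4.82 and 4.82 in phenformin and 4.17, 4.14 and 4.32 in LA, and it was higher in CLA than in phenformin too (CLA minus phenformin 5.17 ± 0.22, limma adjusted p = 2.50e-06). Fosl1 and Cxcl2 behaved likewise, with 4.73 ± 0.15 and 2.8 ± 0.2, as did Klf2 with 2.5 ± 0.14 and Dusp6 with 2.5 ± 0.16 (adjusted p between 7.69e-07 and 7.97e-05). Ptgs2 had an intermediate level in phenformin, 7.01, 7.41 and 6.68, and was higher in CLA by 2.95 ± 0.2. Saa3, Timp1 and Hmox1 did not pass against phenformin, with 0.24 ± 0.23, 0.07 ± 0.16 and 0.23 ± 0.16. Other genes ran the other way. Ddit3, a stress-induced factor, was at 11.39, 11.36 and 11.38 in CLA, 12.51, 12.62 and 12.90 in phenformin and 9.61, 9.75 and 9.68 in LA, lower in CLA than in phenformin (CLA minus phenformin -1.3 ± 0.12, adjusted p = 0.000314). Slc2a4 and Ppargc1a were lower in CLA than in phenformin too, at -1.66 ± 0.19 and -1.87 ± 0.18 (adjusted p = 0.0011 and 0.0004).

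**Figure D4:**
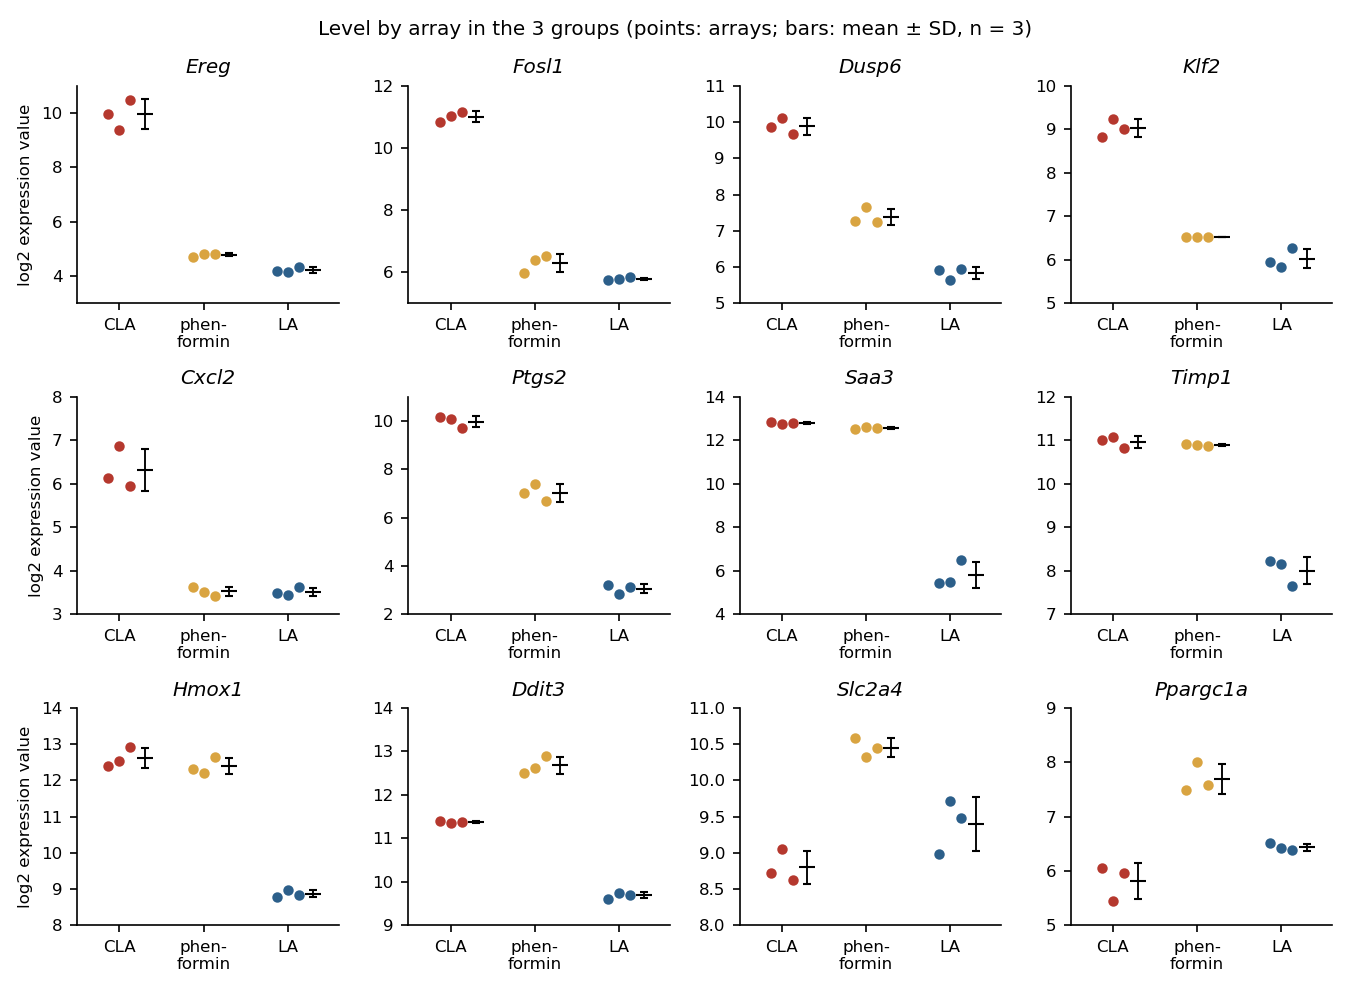
Each panel is 1 gene, with the log2 expression value on the vertical axis (which does not start at 0), points for the 3 arrays of CLA, phenformin and LA, and bars for mean ± SD (n = 3). Ereg, Fosl1, Klf2 and Cxcl2 were called higher in CLA than in phenformin and LA, Saa3, Timp1 and Hmox1 were not called between CLA and phenformin, and Slc2a4 and Ppargc1a are highest in phenformin.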

How the data were processed

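Expression was measured on 9 Affymetrix mouse genome arrays, 3 each of CLA, phenformin and LA, each hybridized with RNA of 1 sample of 3T3-L1 adipocytes. The authors deposited, for every probe set, a log2 expression value. RMA (a method that corrects the background, normalizes between arrays and summarises probes into probe sets), limma and R 2.9.0 are named by the submitters' processing notes, which give neither their order nor their settings. The deposited table of comparisons also holds a p-value and a score per probe set; its log2 fold changes differed from the group mean differences by at most 4.57e-08. That table was used for this check alone.

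From the deposited log2 values, 64 control probe sets were left out and 45037 probe sets were fitted with limma 3.58.1 in R 4.3.3 (lmFit with 1 mean per group over the 9 arrays, eBayes, Benjamini-Hochberg over all probe sets, threshold 0.05). Tables and plots were made with Python 3.11.15, pandas 2.3.3 and matplotlib 3.10.9. Of the probe sets 34945 had 1 gene symbol in the platform annotation, 932 several and 9160 none, and 18193 genes were each represented by the probe set with the highest mean. Of 1669 entries in 66 gene lists 1551 matched a measured gene, and the others were not analysed here. The members and lists were chosen with earlier results of these data known. Genes named are the 15 largest rises and falls that did not overlap between groups, up to 4 called and 2 bright uncalled members of each list, and a short list of adipocyte genes; names outside this rule are marked. Where no array of a group lay above background, the fold is given as a lower bound against the higher of the background level and the measured value. With 3 arrays against 3, an exact permutation test cannot go below p = 0.1, so p-values come from the fit across probe sets, and the number of arrays limits the precision. Replicate numbers are shared by the groups, and the labels do not say whether a number marks a shared batch. Deviations from the group means had correlations of -0.08, -0.11 and -0.29 between same-numbered CLA and LA arrays. Between same-numbered CLA and phenformin arrays they were 0.29, 0.09 and 0.58, and between different-numbered ones -0.53 to 0.39. With 3 arrays per group these values cannot decide whether the samples were paired. The main fit had no replicate block, and a fit with one was an alternative. The fit was also run on simulated data with known changes, and the outcome is not reported here. Alternatives were other scalings, a filter on dim probe sets, other variance models, array weights, the 6 arrays alone, a replicate block, a covariate for 3′ to 5′ balance, a minimum fold and leaving out each array.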

Additional observations from a re-analysis of the deposited data

Results flagged for a closer look

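The hybridization controls, bacterial and phage transcripts added to each sample before hybridization and used in no comparison above, were brighter in CLA than in LA. Their 18 probe sets averaged 11.94 ± 0.82 in CLA, 10.95 ± 0.50 in phenformin and 9.93 ± 0.21 in LA (mean log2 value ± SD, n = 3 each), a CLA minus LA difference of 2.01. Every CLA array, from 11.07 to 12.71, lay above every LA array, from 9.77 to 10.17. The part of this difference in the gene results was not tested. No test for a single outlying array was run on groups of 3, and of the estimated array weights that of LA replicate 3 was the lowest, at 0.312.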

How the results depend on the processing

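Counts of called features depended on the processing more for falls than for rises. Quantile normalization gave 4505 lower probe sets and 2319 lower genes, and 46.4% of called probe sets were higher. Array weights gave 11273 called probe sets, 4965 of them lower, and 2267 lower genes. The covariate for 3′ to 5′ balance gave 4900 called probe sets, 1573 of them lower, and 698 lower genes. A minimum fold of 1.5 gave 1307 called probe sets, 987 higher and 320 lower (75.5% higher), and 535 higher and 159 lower genes. With 1 array left out, called probe sets ranged from 4788 to 8313 and lower ones from 1641 to 3602, and lower genes from 818 (without CLA replicate 1) to 1725 (without LA replicate 3), with 899 without CLA replicate 2 and 900 without LA replicate 1. The cause was not tested. Whether the replicate numbers pair the samples is not known. With the replicate block 4735 probe sets were higher and 2751 lower. In that fit 962 genes were called between CLA and phenformin, against 1147 without the block. Adipoq and Fabp5 turned lower after quantile normalization (-0.40 and -0.41), and Pla2g6 turned higher as the mean of its probe sets (0.44). Centring on medians, leaving out dim probe sets, the intensity trend and the 6 arrays alone kept the counts over all probe sets and all genes within 1.5 times, but not those of every list: with the 6 arrays alone 0 mitochondrial ribosomal proteins fell, against 6, and 1 glutathione S-transferase rose, against 5. Dim genes are a further limit of these arrays, as a gene near background in LA can hardly show a fall.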

Other observations

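Probe sets without a single gene symbol were not part of the gene counts. Of 10092 such probe sets 392 were called higher and 499 lower in CLA than in LA on the deposited values, while of all 45037 probe sets 7426 were called (16.5%). Falls outnumbered rises among them, in contrast to the genes with a symbol on the same values. After quantile normalization those genes had more falls than rises too, with 1877 higher and 2319 lower. The probe sets without a single symbol were not counted under that scaling.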
